A study of Homo sapiens with 9 samples.

Results

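The RNA interference and microRNA machinery was examined through 10 genes taken by name, namely *DROSHA*, *DGCR8*, *XPO5*, *DICER1*, *TARBP2*, *AGO1*, *AGO2*, *AGO3*, *TNRC6A* and *TNRC6B*. They were 10 of the 19918 genes counted, and all 10 passed the expression filter that left 12810 genes for testing. The libraries came from VCaP, an established cell line of human prostate cancer, and formed 3 groups of 3. The si025 and si033 groups each received an siRNA designed against the long non-coding RNA *IGF1R-AS1*, and the control group received a control siRNA. All groups therefore shared the introduction of a double-stranded small RNA, 100 pmol by reverse transfection with RNAiMAX, followed by harvest at 72 h, and no untransfected group was analysed here. The labels give 1.3 µg of total RNA per library and a stranded total RNA preparation, and they call the control genotype WT. The study calls its knockdown replicates biological, but neither it nor the labels say that the libraries of a group came from separate cultures, so *p* values measure only the spread between these libraries.

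MicroRNAs are cut from long transcripts in the nucleus by the Microprocessor, made of the nuclease DROSHA and its RNA-binding partner DGCR8, and the hairpins are carried to the cytoplasm by exportin-5, the product of *XPO5*. DICER1, with its partner TARBP2, then releases a short duplex, and an Argonaute protein keeps a single strand of it as guide. Synthetic siRNAs enter the pathway as such duplexes, without the nuclear steps. TNRC6 proteins bind Argonautes and recruit deadenylases to the targeted mRNA.

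Library totals ranged from 11649811 to 28492259 counts. The 11 luminal prostate markers, *KLK3* and *KRT8* among them, were detected in all groups, and their summed level was 8718 to 8978 CPM (counts scaled to a common library size) in control, 10491 to 10812 with si025 and 7487 to 7842 with si033. The 12 markers of immune, endothelial, fibroblast, muscle, basal and erythroid cells summed to 2.67 to 3.48 CPM in control, 4.28 to 6.15 with si025 and 2.38 to 2.72 with si033, with 6 or 7 of them at 0 in every library of a group. Of these, *CD3E*, *DES*, *MYH11*, *KRT5* and *HBB* were at 0 in all 9 libraries. The luminal marker level thus moved with the groups compared here, and its part in the results was not tested. In bulk RNA, fewer cells of a type and less RNA per cell cannot be told apart.

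The double-stranded RNAs listed by the study are shown first, on the assumption that they are the ones given to these cells. Each line reads 5′ to 3′, capitals mark bases 2 to 8, the seed by which a loaded strand pairs with other transcripts, and the second line of each pair is the complement of the first 19 bases of the listed strand.
Negative control, listed strand: uAGCGACUaaacacaucaa
Negative control, complement: uUGAUGUGuuuagucgcua
siRNA-1, listed strand: aGAAAGCAcugaagaccuauu
siRNA-1, complement: uAGGUCUUcagugcuuucu
siRNA-2, listed strand: cCGUAUUGcucaguggaaauu
siRNA-2, complement: uUUCCACUgagcaauacgg
The labels do not say which of siRNA-1 and siRNA-2 is si025 and which is si033, and no assignment was made.

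The 3′ untranslated regions (UTRs) of the 10 genes, from the GENCODE version 44 canonical transcripts (hg38), were searched on the mRNA strand for the 6 words of 7 bases that match these seeds. The words do not overlap one another in the transcripts shown here. CACATCA, which matches the seed of the complement of the negative control, was in the UTRs of *AGO2*, *AGO3*, *TNRC6B* and *XPO5*, and in 11.7% of the 12083 tested genes with a UTR. TGCTTTC, for the listed strand of siRNA-1, was in *AGO2*, *AGO3*, *DICER1*, *TNRC6A* and *TNRC6B* and in 21.0% of all genes. AGTGGAA, for the complement of siRNA-2, was in *AGO1*, *AGO2*, *DICER1*, *DROSHA* and *TNRC6B* and in 16.0% of all genes. AAGACCT and CAATACG were found in *AGO2* and AGTCGCT in *DICER1*, against 11.4%, 1.40% and 1.80% of all genes. The UTRs of *DGCR8* and *TARBP2* held none of the 6 words. UTR length differed greatly, from 283 bases in *TARBP2* and 938 in *DROSHA* to 11888 in *AGO2*, 12567 in *TNRC6B* and 16755 in *AGO3*. *AGO2* held 7 matches in all, *DICER1* 4, and *AGO3* and *TNRC6B* 3 each, while *AGO1* held 1 in a UTR of 10925 bases.

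As examples chosen by hand, 7 of the 22 matches are shown, from 6 of the 8 members with a match, with 8 bases on either side and the word in capitals. None of the 7 matches in *AGO2* is printed. A match is a description of the sequence only.
AGO3, chr1:36063992-36063998, plus strand: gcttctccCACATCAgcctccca
AGO3, chr1:36064795-36064801, plus strand: gccccgcaCACATCAagtactaa
TNRC6B, chr22:40331207-40331213, plus strand: atgggcgtCACATCAcgttgctg
XPO5, chr6:43522896-43522902, minus strand: catgccttCACATCAcaacctgt
DICER1, chr14:95090398-95090404, minus strand: tgttagtgAGTGGAAtgaattga
DROSHA, chr5:31400756-31400762, minus strand: ctggggttAGTGGAAcctttaag
TNRC6A, chr16:24824660-24824666, plus strand: ttaaaagaTGCTTTCtatctctg
Whether any of these words had a part in the changes given below was not tested.

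Part of the machinery differed from control in each siRNA group. With si025, 7 of 10 genes were called against control (2 higher and 5 lower), where called means an adjusted *p* value under 0.05 in the edgeR quasi-likelihood test, beside 61.7% of all genes tested. With si033, 5 of 10 were called (2 higher and 3 lower), beside 54.8% of all genes. Between si025 and si033, 7 of 10 were called (2 higher and 5 lower with si025), beside 60.9% of all genes (31.2% higher and 29.7% lower). These shares lie near the background, so what follows concerns which genes moved and which way. The groups share their libraries across the 3 comparisons, so the comparisons are not independent of each other.

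The members fell into 5 patterns. *AGO3*, *TNRC6B* and *DROSHA* were called in opposite directions with the siRNAs, which was so for 8.39% of all genes tested. *DICER1* was called lower with both, and 29.7% of all genes were called in 1 direction with both. *AGO2*, *XPO5* and *DGCR8* were called lower with si025 and not called with si033, *TNRC6A* was called higher with si033 and not called with si025, and *AGO1* and *TARBP2* were called with neither. The libraries of the groups did not overlap in 7 members for si025 against control, in 6 for si033 against control and in 7 for si025 against si033, beside 65.7%, 59.5% and 62.6% of all genes. The median log2 fold change of the members was -0.12, -0.09 and -0.12 in these comparisons, beside 0.02, 0.00 and -0.00 over all genes. The median absolute log2 fold change was 0.20, 0.15 and 0.30, beside 0.26, 0.22 and 0.24 over all genes.

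**Figure D1:**
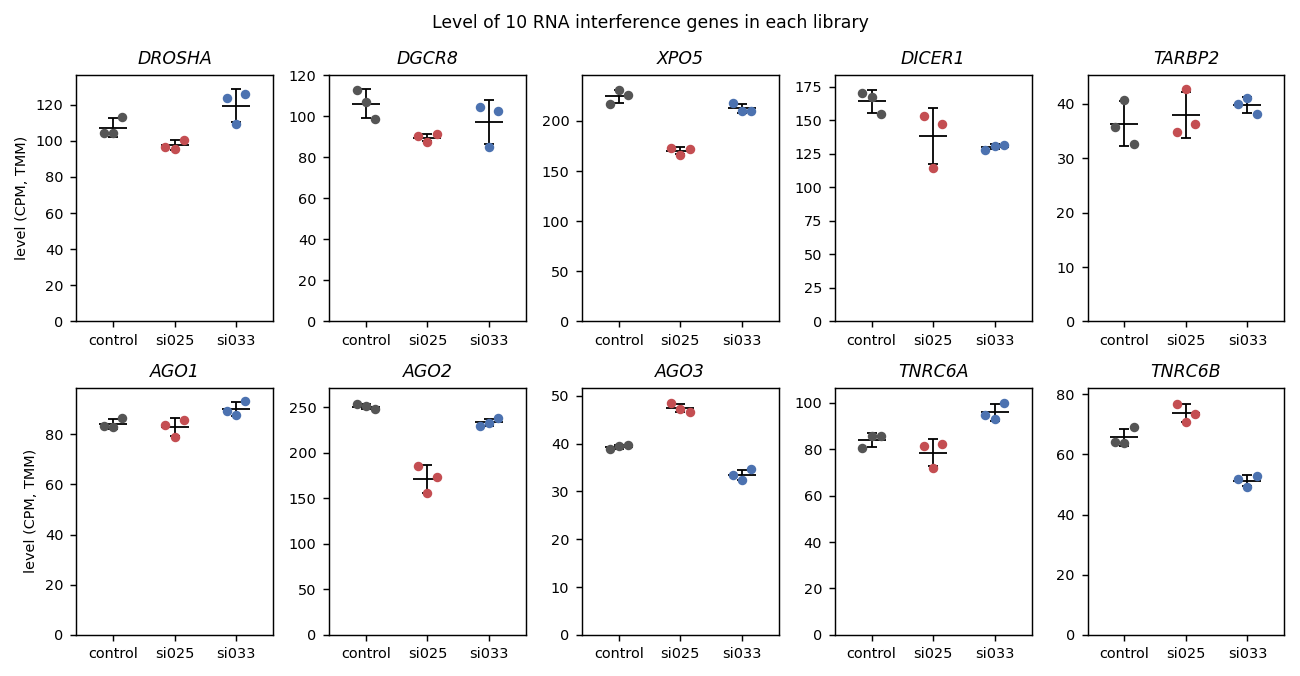
Level of each of the 10 genes in CPM after TMM scaling (vertical axes, linear and starting at 0), with 1 point per library and horizontal bars for the mean ± SD of 3 libraries, in control, si025 and si033. *AGO2* and *XPO5* lie lowest with si025, *AGO3* and *TNRC6B* highest with si025 and lowest with si033, and *DICER1* below control in both siRNA groups.

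For the nuclear steps, *DROSHA* (chromosome 5, 31400494 to 31532175, minus strand), the nuclease that makes the first cut, was measured at 105, 104 and 113 CPM in control, 96.5, 95.6 and 101 CPM with si025 and 124, 109 and 126 CPM with si033. The si025 libraries lay below every control library, whereas si033 replicate 2 lay among the controls. It fell with si025 (-0.14 in log2, SE 0.05, adjusted *p* = 0.0294) and rose with si033 (0.15, SE 0.05, adjusted *p* = 0.0196), and the direct difference between si025 and si033 was -0.30 (SE 0.05, adjusted *p* = 6.04e-05). Both changes against control depended on single libraries. With si025, *DROSHA* was not called without si025 replicate 1 (adjusted *p* = 0.0663), si025 replicate 2 (0.0709) or control replicate 3 (0.181, log2 fold change -0.10), or with upper-quartile scaling (0.0622). With si033 it was not called without si033 replicate 3 (0.148), control replicate 1 (0.0597) or control replicate 2 (0.0725), while the difference between the siRNAs was called under all 19 alternatives.

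*DGCR8* (chromosome 22, 20080232 to 20111877, plus strand), the RNA-binding partner of DROSHA, was at 113, 107 and 99.0 CPM in control, 90.4, 87.5 and 91.2 CPM with si025 and 105, 85.1 and 103 CPM with si033. The si025 libraries lay close together below all controls, and the si033 libraries spread across the range of both other groups. It fell with si025 (-0.24 in log2, SE 0.06, adjusted *p* = 0.00247) and had a value of -0.11 with si033 (SE 0.06, adjusted *p* = 0.139). The difference between si025 and si033 was -0.12 (SE 0.06, adjusted *p* = 0.0943). That difference was called without si033 replicate 2, the lowest of its group (-0.21, adjusted *p* = 0.00314), with GC and length offsets (-0.14, adjusted *p* = 0.0228), with these offsets and the replicate block (-0.13, adjusted *p* = 0.0169) and with no filter on low counts (-0.12, adjusted *p* = 0.0492). The si033 value against control was called with the offsets (-0.14, adjusted *p* = 0.0182) and was -0.03 (adjusted *p* = 0.680) without si033 replicate 2.

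*DGCR8* and *DROSHA* products work as a complex, and the DROSHA protein is known to be stabilised by DGCR8, while Microprocessor cuts the *DGCR8* mRNA at hairpins within it. RefSeq places 2 microRNA genes, *MIR3618* and *MIR1306*, in an exon of *DGCR8*, and these hairpins are that site. Their mature sequences are shown, with the seed in capitals, because they lie inside the exonic sequence that was counted.
miR-3618, chr22:20085797-20085818, plus strand: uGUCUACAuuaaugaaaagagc
miR-1306-5p, chr22:20086072-20086093, plus strand: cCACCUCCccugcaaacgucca
miR-1306-3p, chr22:20086112-20086129, plus strand: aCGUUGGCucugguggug
The ratio of *DGCR8* to *DROSHA* counts was 0.994 ± 0.107 in control, 0.920 ± 0.0157 with si025 and 0.814 ± 0.0341 with si033 (SD, n = 3 each), without correction for length. The ratios of individual libraries were 1.08, 1.03 and 0.874 in control, 0.937, 0.915 and 0.906 with si025 and 0.847, 0.779 and 0.816 with si033. Every si033 ratio was thus below every other ratio, and the control ratios enclosed those of si025. These ratios are a description and were not tested, and gene-level counts do not show cleavage of the mRNA.

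*XPO5* (chromosome 6, 43522330 to 43576075, minus strand), the export receptor for microRNA hairpins, was at 217, 230.3 and 226 CPM in control, 173, 166 and 172 CPM with si025 and 218, 209.7 and 210.0 CPM with si033. All si025 libraries lay well below the other 6, and the si033 and control libraries overlapped. *XPO5* fell by 24.2% with si025 (-0.40 on the log2 scale, SE 0.04, adjusted *p* = 2.81e-08). Its value with si033 was -0.08 (SE 0.04, adjusted *p* = 0.112), and the difference between the siRNAs was -0.32 (SE 0.04, adjusted *p* = 9.41e-07). The fall with si025 stayed between -0.42 and -0.38 under the 19 alternatives. With GC and length offsets the si033 value, still -0.08, was called (adjusted *p* = 0.0398).

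*DICER1* (chromosome 14, 95086228 to 95158010, minus strand), the nuclease that releases the short duplex, was at 171, 167 and 155 CPM in control, 153, 115 and 147 CPM with si025 and 128, 131 and 132 CPM with si033. Every siRNA library was below every control library, and si025 replicate 2 was the lowest of all 9. It fell with both siRNAs, with log2 fold changes of -0.25 for si025 (SE 0.07, adjusted *p* = 0.00410) and -0.33 for si033 (SE 0.07, adjusted *p* = 0.000443), that is by 15.8% and 20.4%. Between them the value was 0.08 (SE 0.07, adjusted *p* = 0.339). The size with si025 rested on 1 library. Without si025 replicate 2 the fall was -0.13 (still called, adjusted *p* = 0.0308) and the difference between the siRNAs became 0.20 (adjusted *p* = 0.00125). The same library was the lowest of its group for every other member except *AGO3* and *TARBP2*, and the highest for *TARBP2*.

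*TARBP2* (chromosome 12, 53500921 to 53506431, plus strand), a double-stranded RNA-binding partner of DICER1, was the only member called in no comparison. It was at 35.7, 40.8 and 32.6 CPM in control, 34.9, 42.7 and 36.3 CPM with si025 and 40.0, 41.2 and 38.2 CPM with si033, and all 3 groups overlapped. Its log2 fold changes were 0.08 with si025 (SE 0.08, adjusted *p* = 0.371) and 0.14 with si033 (SE 0.08, adjusted *p* = 0.150), with a difference of -0.05 (SE 0.08, adjusted *p* = 0.563). Without control replicate 2, the highest control, the si033 value was 0.23 and called (adjusted *p* = 0.0246). *PRKRA*, which encodes the related DICER1 partner PACT, was at 47.4 ± 2.23 CPM in control, 45.9 ± 1.92 with si025 and 51.5 ± 0.835 with si033. It was called only between si025 and si033 (-0.16, SE 0.06, adjusted *p* = 0.0153), with values of -0.05 (adjusted *p* = 0.463) and 0.11 (adjusted *p* = 0.0954) against control.

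Among the Argonautes, *AGO2* (chromosome 8, 140520158 to 140642406, minus strand) encodes the family member best known for cutting the targets of siRNAs. It was at 253, 251 and 248 CPM in control, 185, 155 and 173 CPM with si025 and 229.7, 232 and 238 CPM with si033. The 3 groups did not overlap, with si025 lowest and control highest. *AGO2* fell by 31.9% with si025 (-0.55 on the log2 scale, SE 0.05, adjusted *p* = 2.20e-09), the largest change of any member against control. With si033 the value was -0.10 (SE 0.05, adjusted *p* = 0.0909), and the siRNAs differed by -0.45 (SE 0.05, adjusted *p* = 6.19e-08). The si025 value ranged from -0.61 to -0.49 under the 19 alternatives. The smaller si033 value was called with only the libraries of these groups in the fit (adjusted *p* = 0.0336), with GC and length offsets (-0.14, adjusted *p* = 0.000464) and without si025 replicate 2 (adjusted *p* = 0.0307).

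*AGO3* (chromosome 1, 35925198 to 36072037, plus strand) moved in opposite directions. It was at 38.9, 39.6 and 39.7 CPM in control, 48.4, 47.2 and 46.7 CPM with si025 and 33.4, 32.4 and 34.6 CPM with si033. Each group kept to its own narrow range. *AGO3* rose with si025 (0.26 in log2, SE 0.05, adjusted *p* = 0.000189) and fell with si033 (-0.23, SE 0.06, adjusted *p* = 0.00142), a difference of 0.49 (SE 0.05, adjusted *p* = 4.94e-08). Under the 19 alternatives the si025 value ranged from 0.23 to 0.29 and the si033 value from -0.26 to -0.20, and all were called.

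*AGO1* (chromosome 1, 35869808 to 35929610, plus strand) was at 83.5, 82.8 and 86.4 CPM in control, 83.8, 78.9 and 85.9 CPM with si025 and 89.2, 87.7 and 93.2 CPM with si033. The si025 and control libraries overlapped and the si033 libraries lay just above both. Its values were -0.03 with si025 (SE 0.05, adjusted *p* = 0.669) and 0.10 with si033 (SE 0.05, adjusted *p* = 0.102). Directly compared, si025 and si033 gave -0.12 (SE 0.05, adjusted *p* = 0.0341). It was not called without si025 replicate 2 (-0.09, adjusted *p* = 0.147), without si033 replicate 3 (-0.10, adjusted *p* = 0.172) or with no filter on low counts (adjusted *p* = 0.0502). Upper-quartile scaling called the si033 value (0.13, adjusted *p* = 0.0322).

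*AGO1* and *AGO3* are neighbours on the same strand, and in the annotation of the files they share 4413 exonic bases, 33.8% of the exonic bases of *AGO1* and 15.7% of those of *AGO3*. Read pairs that fell only there could not be given to either gene under the counting used, so the levels of both, although not of *AGO2*, are less certain. *AGO4* (chromosome 1, 35807630 to 35857890, plus strand), a further Argonaute gene upstream of *AGO1*, was at 38.4, 40.7 and 40.5 CPM in control, 46.2, 40.3 and 43.5 CPM with si025 and 51.3, 50.4 and 50.9 CPM with si033. The si033 libraries lay above all others. *AGO4* rose with si033 (log2 fold change 0.35, SE 0.06, adjusted *p* = 2.54e-05) and had a value of 0.11 with si025 (SE 0.06, adjusted *p* = 0.113). The siRNAs differed by -0.24 (SE 0.06, adjusted *p* = 0.000986). The PIWI genes *PIWIL1* to *PIWIL4*, the germline branch of the family, had at most 23 counts in any library and were not tested.

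For the TNRC6 scaffolds, *TNRC6A* (chromosome 16, 24610260 to 24826227, plus strand), which encodes GW182, was at 80.7, 85.8 and 85.8 CPM in control, 81.5, 72.1 and 82.1 CPM with si025 and 94.7, 92.9 and 100.0 CPM with si033. The si033 libraries lay above all others, and si025 overlapped control. *TNRC6A* rose with si033 (log2 fold change 0.19, SE 0.05, adjusted *p* = 0.00529) and had a value of -0.10 with si025 (SE 0.06, adjusted *p* = 0.111). The siRNAs differed by -0.29 (SE 0.05, adjusted *p* = 7.02e-05). The rise with si033 missed the threshold without si033 replicate 3 (0.15, adjusted *p* = 0.0506). The si025 value was called with GC and length offsets (-0.14, adjusted *p* = 0.00643) and was -0.04 (adjusted *p* = 0.514) without si025 replicate 2.

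*TNRC6B* (chromosome 22, 40044817 to 40335808, plus strand) moved the other way. It was at 64.1, 63.9 and 69.0 CPM in control, 76.9, 70.9 and 73.3 CPM with si025 and 51.7, 49.2 and 52.7 CPM with si033. The 3 groups did not overlap, with si025 highest and si033 lowest. *TNRC6B* rose with si025 (0.16 in log2, SE 0.05, adjusted *p* = 0.0131) and fell with si033 (-0.36, SE 0.06, adjusted *p* = 7.82e-06). The difference, 0.52 (SE 0.05, adjusted *p* = 2.08e-08), was the largest of any member between the siRNAs. The fall with si033 was called under all 19 alternatives, whereas the smaller rise with si025 was not called without si025 replicate 1 (adjusted *p* = 0.0605), control replicate 1 (0.0514) or control replicate 2 (0.0629). *TNRC6C*, the remaining family member, was at 34.9 ± 2.93 CPM in control, 37.4 ± 3.97 with si025 and 34.1 ± 2.46 with si033, and was not called in any comparison (adjusted *p* = 0.228, 0.938 and 0.194).

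**Figure D2:**
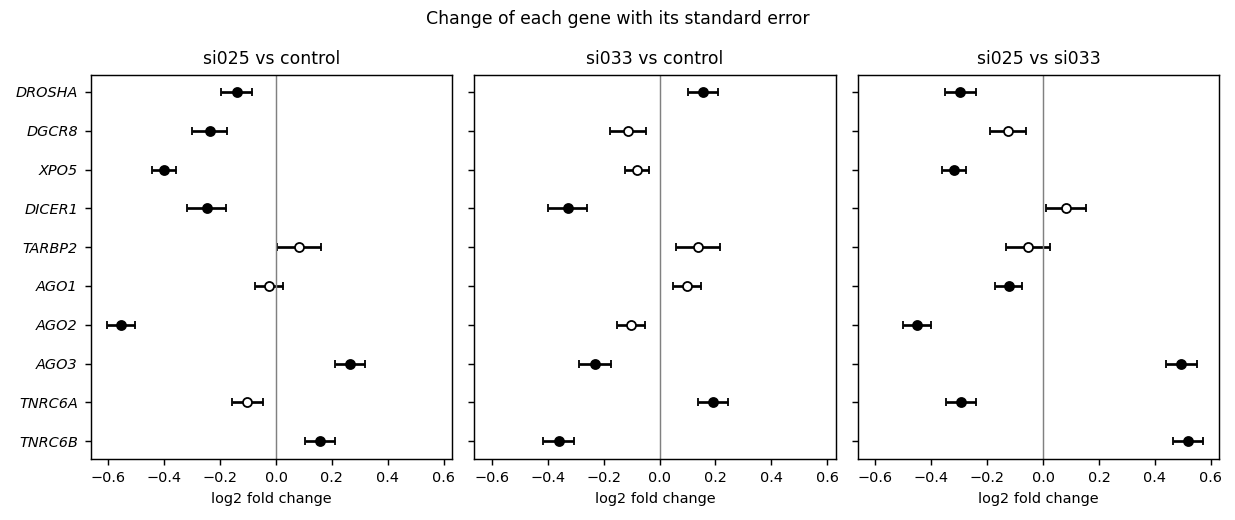
Log2 fold change of each gene (horizontal axis) with its standard error for si025 against control, si033 against control and si025 against si033, from the edgeR quasi-likelihood fit over 9 libraries. Filled points have an adjusted *p* value under 0.05. *AGO3* and *TNRC6B* lie right of 0 with si025 and left of 0 with si033, *DROSHA* the reverse, and *DICER1* left of 0 with both.

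To compare genes with each other, levels were expressed per length, as CPM divided by the exonic length in kilobases (FPKM). In control cells *XPO5* had the highest level per length (41.8 ± 1.26 FPKM), followed by *DGCR8* (23.3 ± 1.54), *DROSHA* (17.3 ± 0.836), *TARBP2* (16.8 ± 1.91), *AGO2* (13.4 ± 0.147), *TNRC6A* (9.38 ± 0.330), *DICER1* (9.24 ± 0.469), *AGO1* (6.46 ± 0.145), *TNRC6B* (3.51 ± 0.155) and *AGO3* (1.41 ± 0.0148; SD, n = 3 each). Neighbours in this order had separate ranges, except *DROSHA* and *TARBP2*, and *TNRC6A* and *DICER1*, whose libraries overlapped. The order depends on the length used, since exonic length joins all annotated transcripts. With the length of the GENCODE canonical transcript *TARBP2* was second (24.1 ± 2.73 FPKM) and overlapped *DGCR8* (23.6 ± 1.56), and *DICER1* (15.8 ± 0.803) was above *TNRC6A* (9.90 ± 0.349). *XPO5* was first, and *AGO1*, *TNRC6B* and *AGO3* last in this order, in all 3 groups with either length. Neither length was corrected for the exonic bases that *AGO1* and *AGO3* share, where read pairs went uncounted. The levels per length of these genes are therefore likely too low, and the place of *AGO1* in the order is uncertain.

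Within the Argonaute family, with the lengths as annotated, *AGO2* held the largest share of the level per length, and a smaller one with each siRNA than in control. It held 50.9%, 50.2% and 49.4% of the summed level of *AGO1* to *AGO4* in the control libraries, 40.6%, 38.5% and 39.5% with si025 and 45.0%, 45.7% and 45.3% with si033, and the groups did not overlap. The share of *AGO4* was 20.3 ± 0.573% in control, 25.5 ± 0.301% with si025 and 25.2 ± 0.426% with si033, so it was larger with both siRNAs. The share of *AGO1* was 24.2 ± 0.484%, 27.6 ± 0.984% and 25.2 ± 0.381%, and that of *AGO3*, the smallest, was 5.27 ± 0.0321%, 7.35 ± 0.414% and 4.35 ± 0.0791%. With canonical transcript lengths, a choice made after the values were seen, the *AGO2* share was 55.7 ± 0.755% in control, 44.8 ± 1.10% with si025 and 51.1 ± 0.372% with si033, in the same order. The shares of a family sum to a whole, so a fall in one raises the others, and they were not tested. Neither length was corrected for the exonic bases that *AGO1* and *AGO3* share, where read pairs went uncounted. The *AGO2* share is therefore likely too high, and whether it is the largest in every group is uncertain.

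The TNRC6 family was described in the same way. *TNRC6A* held 61.9 ± 1.15% of the summed level per length in control, 58.0 ± 0.780% with si025 and 68.4 ± 0.675% with si033. *TNRC6B* held 23.2 ± 0.867%, 26.1 ± 0.995% and 17.5 ± 0.195%, and *TNRC6C* 14.9 ± 1.47%, 15.9 ± 0.672% and 14.1 ± 0.583%. In counts, without correction for length, the ratio of *TNRC6A* to *TNRC6B* was 1.26, 1.34 and 1.24 in control, 1.06, 1.02 and 1.12 with si025 and 1.83, 1.89 and 1.90 with si033. The 3 groups kept apart in this ratio. The ratio of *AGO2* to *AGO1* counts also kept the groups apart, at 2.98 ± 0.0940 in control, 2.06 ± 0.126 with si025 and 2.59 ± 0.0521 with si033.

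**Figure D3:**
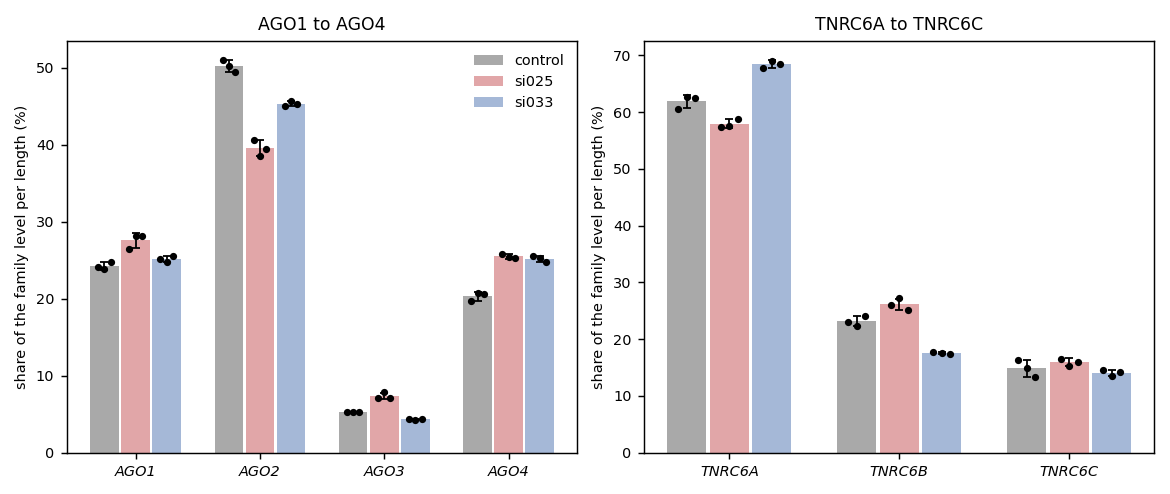
Share of the summed level per exonic length (vertical axis, percent, starting at 0) held by each of *AGO1* to *AGO4* and each of *TNRC6A* to *TNRC6C*, with bars for the mean, error bars for the SD of 3 libraries and points for single libraries. The *AGO2* share is 50.2% in control, 39.5% with si025 and 45.3% with si033, and the *TNRC6B* share is lowest with si033. Lengths were not corrected for the exonic bases that *AGO1* and *AGO3* share.

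For the members with the largest changes, the tested gene with the most similar profile was found, by the mean absolute difference of centred log2 CPM over the 9 libraries. For *AGO2* it was *ATM*, with a mean difference of 0.03 and log2 fold changes of -0.49 with si025 and -0.03 with si033. For *AGO3* it was *SAT1* (0.02), with fold changes of 0.25 and -0.24 on the log2 scale. For *TNRC6B* it was *TBRG1* (0.03), with 0.21 and -0.34. The likeness is a description of these libraries.

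The wider pathway was described by 6 further lists with the 3 paralogs above, 108 of 115 listed genes being tested. With si025, 72 of the 108 were called (22 higher and 50 lower), with si033 61 (16 higher and 45 lower), and between the siRNAs 65 (30 higher and 35 lower with si025). Lower calls made up 28.8% of all genes tested with si025 and 27.8% with si033, and higher calls 32.9% and 26.9%. Between the siRNAs, 31.2% of all genes were called higher and 29.7% lower with si025. Calls in either direction made up 61.7%, 54.8% and 60.9% of all genes in these comparisons. The median log2 fold change of these 108 genes was -0.12 with si025 and -0.08 with si033, beside 0.02 and 0.00 over all genes.

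Of 16 further genes of nuclear processing and export, 2 were called higher and 12 lower with si025, and 2 higher and 8 lower with si033, with median log2 fold changes of -0.26 and -0.12. *KHSRP*, an RNA-binding protein that aids the processing of some precursors, fell with both (-0.41, SE 0.04, adjusted *p* = 2.34e-08, and -0.24, SE 0.04, adjusted *p* = 5.16e-05), and more so with si025. *DDX5*, a helicase of the Microprocessor, went from 898 ± 29.0 CPM in control down to 745 ± 5.53 CPM with si025 (-0.27, adjusted *p* = 2.74e-06) and 575 ± 16.1 CPM with si033 (-0.64, adjusted *p* = 3.25e-12). *XPO1*, the general nuclear export receptor, fell with si025 (-0.33, adjusted *p* = 8.56e-07) and had a value of -0.05 with si033 (adjusted *p* = 0.401). *NCBP2*, a subunit of the cap-binding complex, rose with both (0.21, adjusted *p* = 0.00101, and 0.14, adjusted *p* = 0.0254).

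Of 15 genes for loading of the RNA-induced silencing complex, largely chaperones and cochaperones, none was called higher with either siRNA, while 12 were called lower with si025 and 9 with si033. The median log2 fold changes were -0.18 and -0.16. *FKBP4*, an HSP90 cochaperone, went from 632 ± 8.77 CPM in control to 541 ± 12.8 CPM with si025 (-0.22, adjusted *p* = 2.61e-05) and 423 ± 5.79 CPM with si033 (-0.58, adjusted *p* = 1.50e-11). *PTGES3*, which encodes the HSP90 cochaperone p23, fell with si025 (-0.32, adjusted *p* = 1.12e-06) and si033 (-0.22, adjusted *p* = 0.000144). *HSPA8*, the constitutive HSC70 chaperone, fell with si025 (-0.19, adjusted *p* = 0.000154) and had a value of 0.06 with si033 (adjusted *p* = 0.234). These chaperones serve many other proteins too.

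Of 15 genes of small RNA tailing, editing and turnover, 3 were higher and 5 lower with si025, and 3 higher and 6 lower with si033. *ZSWIM8*, the receptor of a ubiquitin ligase that acts in target-directed microRNA decay, rose from 69.8 ± 5.70 CPM in control to 105 ± 6.38 with si025 (0.60, adjusted *p* = 3.46e-08) and 91.8 ± 7.86 with si033 (0.41, adjusted *p* = 1.42e-05). *LIN28B*, which blocks maturation of let-7, was low, at 2.49 ± 0.270 CPM in control, and fell with both (-0.92, SE 0.22, adjusted *p* = 0.000873, and -0.95, SE 0.22, adjusted *p* = 0.000911). *TENT2*, a poly(A) polymerase, fell with si033 (-0.75, adjusted *p* = 3.00e-09) and had a value of 0.04 with si025 (adjusted *p* = 0.615). *ADARB1*, an RNA editing enzyme, rose with si033 (0.48, adjusted *p* = 4.44e-08), with a value of 0.11 for si025 (adjusted *p* = 0.0617).

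Of 29 tested genes of the deadenylation and decapping machinery, which acts after TNRC6 proteins, 5 were higher and 10 lower with si025, and 6 higher and 10 lower with si033. *CNOT8*, a catalytic deadenylase subunit of CCR4-NOT, was at 94.5 ± 3.11 CPM in control, 91.1 ± 4.16 with si025 and 47.6 ± 1.06 with si033. It fell with si033 (-0.99, SE 0.05, adjusted *p* = 2.89e-13) and had a value of -0.05 with si025 (adjusted *p* = 0.352). *DCP2*, the decapping enzyme, fell with both (-0.68, adjusted *p* = 6.90e-10, and -0.54, adjusted *p* = 4.15e-08). The LIM proteins *WTIP* and *AJUBA*, both low, differed in pattern. *WTIP* rose from 2.24 ± 0.116 CPM with si025 (0.82, SE 0.17, adjusted *p* = 0.000209) and si033 (0.94, SE 0.17, adjusted *p* = 5.22e-05), and *AJUBA* fell with si025 (-0.64, SE 0.14, adjusted *p* = 0.000280), with 0.09 for si033 (adjusted *p* = 0.594).

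Of 9 tested sensors and effectors of cytosolic double-stranded RNA, 6 were higher and 1 lower with si025, and 1 was higher and 2 lower with si033. *RIGI* rose from 10.4 ± 0.845 CPM in control to 18.8 ± 0.999 CPM with si025 (0.83, SE 0.09, adjusted *p* = 2.05e-08) and was at 11.1 ± 0.879 CPM with si033 (adjusted *p* = 0.382). *IFIH1*, which encodes the sensor MDA5, fell with si033 (-0.70, SE 0.07, adjusted *p* = 6.66e-09), with -0.10 for si025 (adjusted *p* = 0.171). *DHX58*, a regulator of these sensors, was low and higher with both (0.65, adjusted *p* = 0.0105, and 0.63, adjusted *p* = 0.0159, where the si033 and control libraries overlapped). *OAS3*, a synthetase that activates RNase L, was lower with both (-0.58, adjusted *p* = 1.12e-09, and -0.33, adjusted *p* = 7.48e-06). All groups had received an siRNA, so these values compare siRNAs with each other and not with untreated cells.

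**Figure D4:**
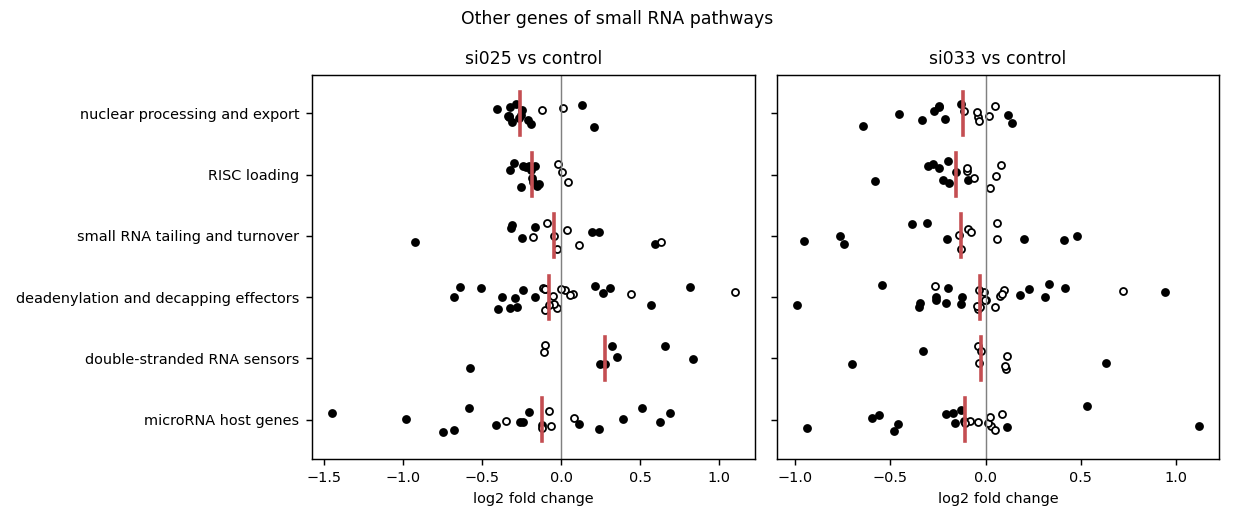
Log2 fold change (horizontal axes) of each tested gene in 6 lists of small RNA pathways, for si025 and si033 against control, with filled points for an adjusted *p* value under 0.05, open points otherwise and a red bar at the median of each list. The medians of nuclear processing and export are -0.26 and -0.12, those of RNA-induced silencing complex loading are -0.18 and -0.16, and those of the double-stranded RNA sensors are 0.28 and -0.03.

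Genes that carry microRNAs, mostly in their introns, were read as hosts, although the counts are from their exons and mature microRNAs were not measured by this assay. Of 21 host genes, 6 were higher and 10 lower with si025, and 3 higher and 10 lower with si033. *MEST*, host of miR-335, fell from 124 ± 2.21 CPM to 45.4 ± 2.92 CPM with si025 (-1.45, SE 0.05, adjusted *p* = 4.91e-16) and was at 129 ± 5.40 CPM with si033 (adjusted *p* = 0.418). *EGFL7*, host of miR-126, rose with si025 (0.69, SE 0.07, adjusted *p* = 2.38e-08), with -0.11 for si033 (adjusted *p* = 0.270).

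The sequences of the microRNA families with 3 hosts each among these genes are shown, seeds in capitals, from RefSeq (hg38), since one seed is then encoded by several genes. The families were picked after the values of their hosts had been seen.
miR-26a-5p, introns of CTDSPL and CTDSP2: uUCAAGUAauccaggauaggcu
miR-26b-5p, intron of CTDSP1: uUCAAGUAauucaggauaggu
miR-107, intron of PANK1: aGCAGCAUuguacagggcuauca
miR-103a-3p, introns of PANK2 and PANK3: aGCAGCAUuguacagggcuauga
The hosts of a single seed differed in direction. For the seed UCAAGUA, *CTDSPL* rose with si025 (0.24, adjusted *p* = 2.26e-05) and fell from 492 ± 11.7 to 256 ± 7.85 CPM with si033 (-0.94, adjusted *p* = 1.11e-14). *CTDSP1* rose with both (0.51, adjusted *p* = 6.84e-09, and 0.53, adjusted *p* = 5.78e-09), and *CTDSP2* fell with si025 (-0.41, adjusted *p* = 9.58e-09) and rose with si033 (0.11, adjusted *p* = 0.0260).

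For the seed GCAGCAU, *PANK1* rose from 10.7 ± 0.832 CPM to 16.5 ± 0.764 with si025 (0.62, adjusted *p* = 1.26e-06) and 23.6 ± 1.65 with si033 (1.12, adjusted *p* = 7.54e-11). *PANK2* fell with si033 (-0.48, adjusted *p* = 5.62e-08), with -0.08 for si025 (adjusted *p* = 0.189). *PANK3* fell with si025 (-0.26, adjusted *p* = 0.00686), with 0.03 for si033 (adjusted *p* = 0.788). The word that matches this seed, ATGCTGC, occurred 5 times in the 3′ UTR of *DICER1*, 5 times in *AGO2*, 3 times each in *AGO1* and *TNRC6B* and once each in *AGO3* and *TARBP2*, and was in 14.6% of the 12083 UTRs. The word that matches the seed UCAAGUA is TACTTGA, which among the 10 members occurred in *AGO3*, *TNRC6A* and *TNRC6B* and in 14.1% of all UTRs. The word for the seed GAGGUAG of let-7f and miR-98, hosted by *HUWE1*, is CTACCTC, which occurred in *AGO1*, *AGO2*, *AGO3* and *TARBP2* and in 11.3% of all UTRs. No other microRNA family was searched. The levels of these microRNAs were not analysed here.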

How the data were processed

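RNA-seq libraries of VCaP cells were compared in 3 groups of 3, assigned by sample title. The authors made the deposited counts, unnormalized whole numbers of read pairs for each gene, with HISAT2 2.1.0 and featureCounts 1.5.2 on hg38 (tools and build also in the submitters' processing notes), over exons, by gene symbol and on the sense strand. Per the file headers the annotation was RefSeq, whereas the methods name GENCODE, and the labels and methods name different extraction kits. The headers also give the exonic length used for FPKM, a column that is not a measurement. By the program's defaults, read pairs shared by overlapping genes or with several mapping positions went uncounted. *IGF1R-AS1* was not analysed here, and neither was the degree of its knockdown.

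The members and lists were chosen with earlier results of these data known. Counts were tested with edgeR 4.0.16 in R 4.3.3 (quasi-likelihood test, TMM, default expression filter, 1 fit over 9 libraries, group means only), with Benjamini-Hochberg adjustment over 12810 genes and a threshold of 0.05. All adjusted *p* values come from this test unless another is named. SE values were obtained by dividing each log2 fold change by the square root of F. CPM values are TMM-scaled and given as mean ± SD. The script was tested on simulated data with 200 genes changed.

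Named genes were all members, their paralogs *AGO4*, *TNRC6C* and *PRKRA*, and in each further list the called genes with the largest rise and fall in each comparison, with the nearest profile of 3 members. Marker lists were an exception and are given as summed levels, and 1 gene that this rule picks is not reported here. *CTDSP1*, *CTDSP2*, *PANK2*, *PANK3* and *HUWE1* were added after their values were seen. Replicate pairs differed by more than counting noise (chi-square per degree of freedom 1.72 to 5.09 over 12357 to 13007 genes), so no library was counted as a repeat of another. UTRs came from GENCODE 44 and microRNAs from RefSeq. No protein sequence was used here. Alternatives were other scalings (RLE, upper quartile), no filter, a filter of at least 1 CPM in 3 libraries, limma 3.58.1 with voom, DESeq2 1.42.0, only the groups compared, GC and length offsets, a replicate block with and without these offsets, and leaving out each library.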

Additional observations from a re-analysis of the deposited data

Results flagged for a closer look

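Of 36 named genes, 26 were singled out because the effects of si025 and si033 against control differed in the edgeR quasi-likelihood test, given here as the si025 effect minus the si033 effect on the log2 scale. Between the siRNAs 60.9% of all genes tested differed. Some of the 36 had been named for the largest called rise or fall in this same comparison. Their flag was thus fixed by the naming rule, and the count of 26 is not a result about these genes. The negative differences among the members were -0.12 for *AGO1*, -0.45 for *AGO2*, -0.30 for *DROSHA*, -0.32 for *XPO5* and -0.29 for *TNRC6A*. The positive ones were 0.49 for *AGO3* and 0.52 for *TNRC6B*. Among the paralogs the values were -0.24 for *AGO4* and -0.16 for *PRKRA*.

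In the wider pathway, nuclear factors gave 0.37 for *DDX5*, -0.17 for *KHSRP* and -0.29 for *XPO1*. Loading factors gave 0.36 for *FKBP4* and -0.25 for *HSPA8*. Turnover and effector genes gave -0.37 for *ADARB1*, 0.78 for *TENT2*, 0.19 for *ZSWIM8*, -0.73 for *AJUBA* and 0.94 for *CNOT8*. Sensors gave 0.60 for *IFIH1*, 0.73 for *RIGI* and -0.25 for *OAS3*. Host genes gave 1.18 for *CTDSPL*, 0.79 for *EGFL7*, -1.50 for *MEST* and -0.50 for *PANK1*. All 26 had an adjusted *p* value of 0.0341 or less, the highest being that of *AGO1*.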

How the results depend on the processing

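Over 570 values, the 30 log2 fold changes of the members under 19 alternatives, no called value reversed, 539 kept their side of the threshold, 14 called values lost the call and 17 values gained one. The changes concerned 13 of the 30 results, named with their values above. For si033 against control, 5 members were called, 8 with GC and length offsets, 8 with the replicate block together with these offsets, and 3 without si033 replicate 3. The share of all genes called moved the same way, from 54.8% to 59.8%, 59.7% and 47.7%. Leaving out 1 library gave 3 to 6 members there, 5 to 7 for si025 against control and 6 to 8 for si025 against si033. For the wider pathway it gave 66 to 75, 51 to 63 and 55 to 66 of the 108 genes for si025, si033 and the difference. In the same fits, 55.4% to 61.9% of all genes tested were called for si025. For si033 the share was 47.7% to 56.3%, and for the difference 54.6% to 60.2%. Scaling moved the median of all genes by less than 0.04. The cause of these differences was not tested.

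Neither the study nor the labels say whether the replicate numbers in the titles pair the libraries, and the correlations given here cannot decide it. In each group the library total was lowest for replicate 1 and highest for replicate 3. Same-numbered libraries deviated from their group means with correlations of -0.0281 to 0.0934 over 9 pairs, and other pairs with -0.144 to 0.137 over 18. With the replicate block, 7 members were called for si025, 5 for si033 and 7 between the siRNAs, beside 62.5%, 55.4% and 61.2% of all genes.

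Standard errors of the members were between 0.04 and 0.08 on the log2 scale with 3 libraries per group. Some values larger than their own error were not called, such as -0.10 (SE 0.05) for *AGO2* with si033 against control. Small differences could therefore be missed.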
